A study of Mus musculus with 18 samples.

Results

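The RNA bound to tagged ribosomes of Tie2-lineage cells in the mouse choroid was compared with the RNA of the whole lysate it came from. The comparison covered all 6 choroid libraries, 3 of the pull-down (called positive) and 3 of the input, of 18 libraries in the series, and all 11718 genes listed in the choroid table, of 14068 genes listed for at least 1 of its 3 tissues. By the labels every animal, in both groups, was Tie2-cre+; NuTRAP+, and the column names of the tables add the tag WT, whose meaning no source used here gives. The Tie2 promoter drives Cre in endothelium and in much of the blood lineage, and the NuTRAP allele, once recombined by Cre, adds GFP to the ribosomal protein Rpl10a. Each sample was made of RPE-choroid cells scraped from 2 fellow eyes of a mouse. The lysate was prepared with 100 µg/ml cycloheximide and cleared at 12000 g for 10 minutes, 150 µl of it was kept as input, and the rest was used for the pull-down with an antibody to GFP. The input and positive libraries numbered 421, 953 and 960 thus came from 3 lysates. The sources used here give neither age nor sex, and a mock pull-down or a Cre-negative animal was not analysed here.

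The choroid is the vascular bed that supplies the photoreceptors from behind the retina. Its innermost layer, the choriocapillaris, is a sheet of wide, fenestrated capillaries that lies against Bruch's membrane, and on the other side of that membrane stands the retinal pigment epithelium (RPE), which renews the visual pigment, engulfs shed photoreceptor tips and secretes the vascular growth factor VEGF-A towards the capillaries. Between the vessels lie melanocytes, fibroblasts, pericytes, smooth muscle, nerves, macrophages and mast cells. The question the comparison addresses is which RNAs of this mixed tissue were on ribosomes of Tie2-lineage cells.

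A value after a gene is its log2 fold change, positive minus input, with its standard error (SE) where one is given. Levels are in CPM, the count of a gene divided by the scaled total of its library, and are listed in the order 421, 953 and 960. Adjusted p values come from edgeR's quasi-likelihood test with Benjamini-Hochberg adjustment over all 11718 genes, and calls, in either direction, were made at an adjusted p under 0.05. Over all genes the median was -0.03. The inputs held 12023666, 8807306 and 14484068 counts and the positives 4587921, 3510896 and 2649095, so the positive values carry more counting error. The table lists a gene where all libraries of at least 1 fraction reach a raw value of 50. Of the listed genes 7539 reached it in both fractions, 4080 only in input and 99 only in positive. Since the inputs hold more counts, a gene reaches that value more easily there. Of the genes listed through input only 1334 were called lower and 108 higher, and of the 99 listed through positive only 94 were called higher and 0 lower, so the listing bears on which genes of a list were measured.

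The 4 markers used to check the tissue separated the fractions. Plvap, which encodes the protein of fenestral diaphragms, measured 341, 211 and 278 CPM in the inputs and 4457, 3014 and 3808 CPM in the positives, a change of 3.77 ± 0.28 (SE, edgeR adjusted p = 8.0e-05). Pecam1, the endothelial adhesion molecule CD31, measured 59.1, 41.6 and 36.6 CPM in the inputs and 720.5, 755 and 549.7 CPM in the positives, a change of 3.88 ± 0.26 (SE, edgeR adjusted p = 5.8e-05). Ramp3, a receptor partner that turns the calcitonin receptor-like receptor into an adrenomedullin receptor, measured 16.9, 11.6 and 18.3 CPM in the inputs and 307, 317 and 310.3 CPM in the positives, a change of 4.31 ± 0.22 (SE, edgeR adjusted p = 3.9e-05). In all 3 genes each positive library lay above each input. Rpe65, the isomerase of the visual cycle and a marker of the RPE, measured 1397, 2226 and 1778 CPM in the inputs and 311, 312 and 548 CPM in the positives, a change of -2.21 ± 0.2996 (SE, edgeR adjusted p = 7.6e-04). Its positives all lay below its inputs and were far from 0, so RNA of the RPE was lower in the pull-down and was not absent from it. Both fractions of a number came from the same lysate. The changes and p values given here compare the positives with the inputs as groups and do not use these pairs. The input is RNA of the whole mixed lysate, of which the Tie2-lineage cells are a part. How RNA of the RPE came into the pull-down was not tested. A similar check on the tag itself gave 267, 274 and 373 CPM in the inputs and 964, 587 and 662 CPM in the positives for Rpl10a, a change of 1.27 ± 0.25 (SE, edgeR adjusted p = 0.00412), higher in all 3 lysates. The gene-level value does not tell the tagged transcript from the native one.

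**Figure D1:**
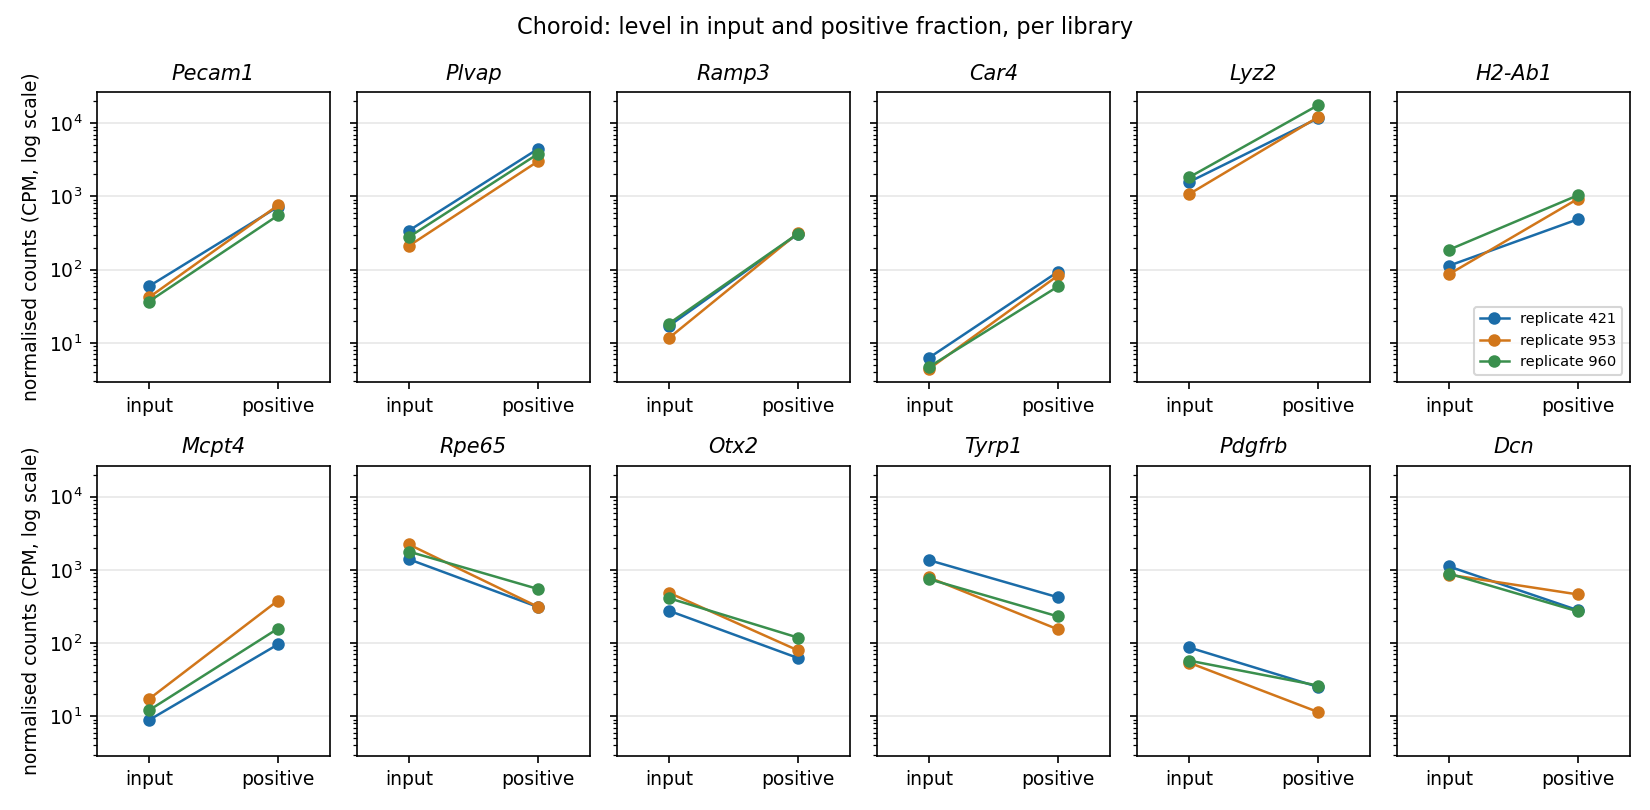
Levels of marker genes of endothelium, leukocytes and RPE in each choroid library, in CPM on a log axis, with inputs and positives joined by lysate. The endothelial markers Plvap, Pecam1 and Ramp3 rise from input to positive in lysates 421, 953 and 960, and Rpe65 falls in each.

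Of 11718 genes, 2471 (21.1%) were called higher and 2451 (20.9%) lower in the positive fraction. Of these 1454 (12.4%) were at least 2-fold higher and 1717 (14.7%) at least 2-fold lower. Groups did not overlap, with all positives above all inputs, in 3118 genes (26.6%), and with all positives below in 3332 (28.4%). With the lysate number as a replicate block, which is justified because an input and a positive of the same number share a lysate, 3223 genes (27.5%) were called higher and 3412 (29.1%) lower. A gene said in what follows to be called with the block was not called in the fit without it. The shares of 21.1% higher and 20.9% lower without the block are the background for the counts of list members that follow. The split depended on the scaling: with library totals alone 1756 genes were higher and 3340 lower, with the median of all genes at -0.26, and with upper-quartile scaling 2008 were higher and 3045 lower, with the median at -0.18. Without input 953 the number called higher was 1609. The highest values among genes with at least 10 CPM and no overlap belonged to 8430408G22Rik (4.76 ± 0.38), Fam167b (4.66 ± 0.296), the endothelial claudin Cldn5 (4.34 ± 0.31), Ramp3, the transcription factor Tcf15 (4.22 ± 0.39), Cytl1 (4.201 ± 0.32) and Grrp1 (4.17 ± 0.43). Fam167b measured 11.7, 7.83 and 10.3 CPM in the inputs and 178, 339 and 240.3 CPM in the positives. Cytl1, a small secreted protein, measured 5.32, 3.97 and 7.299 CPM in the inputs and 75.8, 139 and 94.5 CPM in the positives. Both were scarce in the lysate and prominent in the pull-down of all 3 lysates. Cytl1 fell short of a raw value of 50 in input 953 and so was listed through the positive libraries only. The same holds for Gpihbp1 and Car4, named next. The other members of the highest 20 included the adhesion molecules Esam and Icam2, the lipase anchor Gpihbp1, the membrane-bound carbonic anhydrase Car4, the kinase Bmx, the small GTPase Rnd1 (3.91 ± 0.33), Gm694 and Ces2e. At the other end stood Itgb8 (-3.04 ± 0.52), an integrin subunit that activates latent TGF-beta, then Capn6 (-2.95), Plch1 (-2.92), Adam7 (-2.85), the prostate stem cell antigen gene Psca (-2.85), the organic anion carrier Slco1a5 (-2.75) and the anion exchanger Slc26a7 (-2.75). Capn6 measured 86.2, 94.9 and 105 CPM in the inputs and 15.7, 6.79 and 14.4 CPM in the positives. Gli1, the target gene and effector of Hedgehog signalling, measured 35.6, 17.5 and 18.02 CPM in the inputs and 5.8998, 3.09 and 1.695 CPM in the positives and was lower (-2.65 ± 0.47), as was Tnfrsf11b, which encodes osteoprotegerin (-2.602 ± 0.37). Itgb8, Capn6 and Gli1 fell short of a raw value of 50 in a positive library and so were listed through the inputs only. Of all genes listed that way 1334 were called lower and 108 higher.

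**Figure D2:**
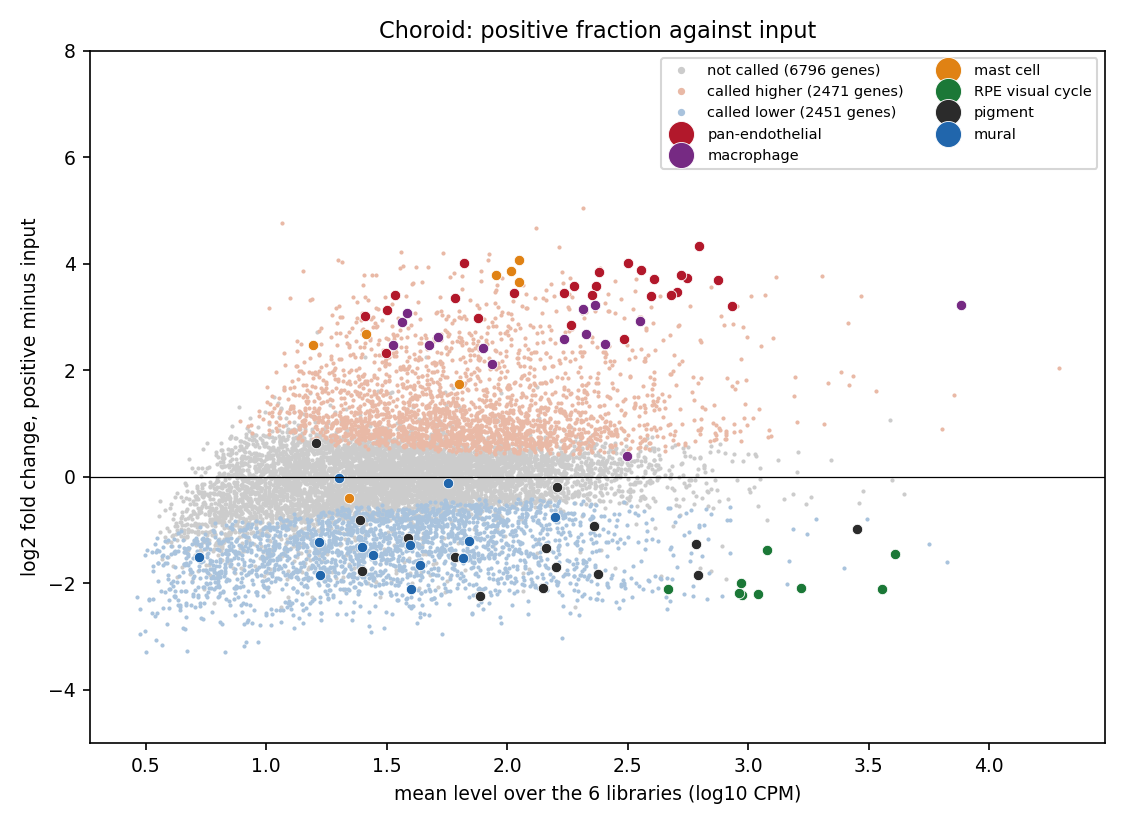
Log2 fold change (positive minus input) of each choroid gene against its mean level over the 6 libraries in log10 CPM, with the genes of named lists marked. Called genes lie on both sides of 0, 2471 above and 2451 below, and the endothelial genes lie at the top.

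All 26 genes of the general endothelial list were called higher, with a median of 3.45 and a range of 2.32 to 4.34, against a median of -0.03 over all genes tested. The list holds junction molecules (Cldn5, Esam, Pecam1), receptors of vessel growth (Kdr, Flt1, Tek, Tie1, Eng), the secreted vessel organizer Egfl7, von Willebrand factor (Vwf) and the transcription factors Sox17, Sox18 and Fli1. Sox17 and Myct1 were in the table through the positive libraries only. Emcn, the capillary and venous sialomucin endomucin, measured 104, 64.1 and 81.7 CPM in the inputs and 922, 971 and 888 CPM in the positives, a change of 3.48 ± 0.23 (SE, edgeR adjusted p = 5.8e-05). Eng, the endothelial co-receptor endoglin, measured 223, 109 and 169.6 CPM in the inputs and 1930.4, 1094 and 1606 CPM in the positives, a change of 3.21 ± 0.33 (SE, edgeR adjusted p = 2.4e-04). Robo4, an endothelial member of the roundabout receptors, measured 22.4, 12.7 and 18.3 CPM in the inputs and 229, 182 and 175 CPM in the positives, a change of 3.45 ± 0.25 (SE, edgeR adjusted p = 6.9e-05). For Emcn, Eng and Robo4 no positive overlapped an input.

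These 3 genes are shown with the sequence just before their start sites because, as members of a list that was higher throughout, their promoters can be looked at for the ETS motif, which endothelial factors such as Fli1 and Erg bind. The sequences are the 250 bases before the RefSeq start on GRCm38.p6, read 5′ to 3′ in the direction of the gene, with AGGAAG or its reverse complement in capitals: Eng at chr2:32646345-32646594, plus strand, Emcn at chr3:137340828-137341077, plus strand and Robo4 at chr9:37401722-37401971, plus strand.
Eng: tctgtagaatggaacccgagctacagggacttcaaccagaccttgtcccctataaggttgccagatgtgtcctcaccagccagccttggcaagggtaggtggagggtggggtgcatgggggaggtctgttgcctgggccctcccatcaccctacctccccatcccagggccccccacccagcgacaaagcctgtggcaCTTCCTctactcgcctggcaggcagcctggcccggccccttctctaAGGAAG
Emcn: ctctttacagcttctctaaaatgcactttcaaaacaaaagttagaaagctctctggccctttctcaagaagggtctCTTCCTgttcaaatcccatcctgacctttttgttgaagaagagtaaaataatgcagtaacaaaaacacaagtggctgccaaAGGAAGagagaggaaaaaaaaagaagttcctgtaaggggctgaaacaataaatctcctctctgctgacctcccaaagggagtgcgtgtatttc
Robo4: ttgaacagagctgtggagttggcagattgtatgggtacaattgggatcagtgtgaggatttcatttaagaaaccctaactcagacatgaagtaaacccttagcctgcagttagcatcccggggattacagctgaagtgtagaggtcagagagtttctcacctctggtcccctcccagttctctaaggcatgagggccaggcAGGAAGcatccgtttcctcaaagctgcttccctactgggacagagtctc
Eng and Emcn carry 2 matches each, 1 on either strand, and Robo4 carries 1. All 3 genes shown carry a match, whereas the windows of Cldn5, Kdr and Tek, members of the same list, held none. Of the list's 26 genes 14 matched the promoter table, with 18 windows, and 10 of these windows (55.6%) held AGGAAG on 1 of the strands. The share was 29.5% of all 32851 windows of the table and 28.1% of the 11995 windows of genes tested in choroid. Among the lists that were lower, 40.7% of the RPE windows and 33.3% of the pigment windows held it. A match describes these letters and does not show that a factor was bound.

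The choriocapillaris list of fenestrated-vessel genes was higher in all 10 measured members, with a median of 3.76. Car4, a carbonic anhydrase on the capillary surface that speeds the exchange of carbon dioxide, measured 6.22, 4.39 and 4.67 CPM in the inputs and 93.5, 83.04 and 58.9 CPM in the positives, a change of 3.94 ± 0.27 (SE, edgeR adjusted p = 5.8e-05). It was listed through the positive libraries only, as was Gpihbp1 (3.96 ± 0.25), which holds lipoprotein lipase on the capillary wall. Esm1, a proteoglycan released by VEGF-stimulated endothelium, measured 48.9, 23.4 and 18.1 CPM in the inputs and 516, 527 and 323 CPM in the positives, a change of 3.92 ± 0.41 (SE, edgeR adjusted p = 2.5e-04). Igfbp3, a carrier of insulin-like growth factors, measured 199, 160.2 and 184 CPM in the inputs and 2833, 2281 and 2177 CPM in the positives, a change of 3.75 ± 0.22 (SE, edgeR adjusted p = 4.7e-05). The lipid phosphatases Ppap2a (3.34) and Ppap2b (1.51) completed the list with the VEGF receptor genes Kdr and Nrp1.

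Receptors of the VEGF family were higher and most of its ligands lower. Kdr, the main VEGF-A receptor VEGFR2, measured 149, 91.5 and 82.7 CPM in the inputs and 1803, 1337 and 1029 CPM in the positives, a change of 3.69 ± 0.33 (SE, edgeR adjusted p = 1.5e-04). Flt1 (3.396), the decoy-like receptor VEGFR1, Flt4 (3.06), the VEGF-C receptor, and the co-receptors Nrp1 (2.56) and Nrp2 (0.98) were called higher as well, all 5 of the list. Vegfa, the ligand made by the RPE, measured 364, 486 and 418 CPM in the inputs and 90.99, 92.9 and 119 CPM in the positives, a change of -2.07 ± 0.196 (SE, edgeR adjusted p = 1.8e-04). In each lysate the Vegfa level fell and the Kdr level rose, and the fractions of neither gene overlapped. Vegfb (-1.39) and placental growth factor, Pgf (-1.25), were called lower too. Vegfc, the lymphatic growth factor, was the one ligand called higher (0.898 ± 0.32, edgeR adjusted p = 0.0485), and it lost its call without 1 library, namely input 421, input 953, input 960, positive 421 or positive 960 (log2 0.58 to 0.94, adjusted p = 0.0817 to 0.178). Its call was also lost with library totals, upper-quartile scaling, a minimum mean of 10 CPM and limma (adjusted p = 0.0624 to 0.123). Of the 5 ligands 3 were listed through the inputs only. Figf, which encodes VEGF-D, was at -0.85 ± 0.46 and not called, and it was called without positive 953 (log2 -1.52, adjusted p = 0.0348).

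In the Tie and angiopoietin pair the receptors were higher and the ligands divided. The receptor Tek, which gives the Tie2 promoter its name, was at 3.42 ± 0.32, its relative Tie1 at 3.78 ± 0.29 and the phosphatase Ptprb, which restrains Tek, at 3.41 ± 0.402. Angpt2, the antagonist ligand stored by endothelial cells, measured 11.2, 8.56 and 9.403 CPM in the inputs and 76.2, 50.6 and 48.3 CPM in the positives, a change of 2.59 ± 0.25 (SE, edgeR adjusted p = 1.9e-04). Angpt1, the agonist ligand made by mural and stromal cells, measured 50.1, 23.8 and 30.2 CPM in the inputs and 14.5, 6.79 and 7.21 CPM in the positives, a change of -1.83 ± 0.39 (SE, edgeR adjusted p = 0.00636). The 2 ligands of the same receptor therefore lay on opposite sides, each without overlap between fractions. Angpt1, however, was listed through the inputs only, and most called genes listed that way were lower.

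In the Notch pathway, which sets arterial fate and vessel branching, the members parted by receptor. The ligand Dll4 measured 11.8, 8.67 and 9.47 CPM in the inputs and 169.5, 139.5 and 128 CPM in the positives, a change of 3.86 ± 0.21 (SE, edgeR adjusted p = 4.4e-05), and Notch4, the receptor largely confined to endothelium, measured 35.8, 13.9 and 20.3 CPM in the inputs and 333, 202 and 264 CPM in the positives, a change of 3.51 ± 0.37 (SE, edgeR adjusted p = 2.5e-04). The ligand Jag2 (2.67) and the receptor Notch1 (1.32) were called higher, and the receptor Notch2 (-1.31) lower. Notch3, the mural cell receptor, was lower at -1.85 and lost its call without 1 library, namely input 421, positive 953 or positive 960 (log2 -1.81 to -1.397, adjusted p = 0.0541 to 0.08405), and in the fit over all 18 libraries (adjusted p = 0.0519). Jag1 was at -0.15 and not called, and Dll1 was called with the replicate block (0.71, adjusted p = 0.0102). Of 8 targets and modulators 6 were called higher. Among them were Hey1 (2.09), Hes1 (2.18) and Nrarp (2.75), which are transcribed in response to Notch, and the sugar transferases Mfng (2.97) and Lfng (2.26), which tune the choice of ligand. The third transferase, Rfng, was lower (-1.15). Hey2 was higher at 1.36 and lost its call without 1 library, namely input 421, input 953 or positive 421 (log2 0.81 to 1.36, adjusted p = 0.0633 to 0.0695). Heyl was lower at -1.97 and lost its call without 1 library, namely input 421, input 953, input 960, positive 953 or positive 960 (log2 -2.17 to -1.58, adjusted p = 0.0587 to 0.1097).

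For BMP and TGF-beta signalling, which steadies the vessel wall, the endothelial receptors Acvrl1 (3.07 ± 0.29) and Eng were higher, and the broadly expressed receptors Bmpr1a (-1.83 ± 0.19) and Tgfbr3 (-0.98 ± 0.204) were lower. Tgfbr1 was higher at 1.08 and lost its call without input 953 (log2 0.94, adjusted p = 0.0728). Tgfbr2 was higher at 1.09 and lost its call without 1 library, namely input 953, input 960 or positive 421 (log2 0.81 to 0.97, adjusted p = 0.0543 to 0.0814). With library totals alone neither Tgfbr1 nor Tgfbr2 was called (adjusted p = 0.0525 and adjusted p = 0.0591). The target genes Id1 (2.99 ± 0.22), Id3 (1.26), Smad6 (2.53) and Smad7 (1.64), inhibitors that these receptors induce, were higher, and Id2 was at 0.03 and not called. Of 7 ligands, Tgfb1 alone was called higher (2.59 ± 0.23). Bmp4 (-1.42), Bmp7 (-1.27) and Gdf11 (-2.43) were lower. Tgfb3 was lower at -1.63 and lost its call without 1 library, namely positive 953 or positive 960 (log2 -1.49 to -1.44, adjusted p = 0.0533 to 0.05901).

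The table lists 25 endothelial transcription factors, of which 22 were called higher (median 2.599), 5 of them listed through the positive libraries only. Sox18 measured 32.9, 28.6 and 32.5 CPM in the inputs and 425, 446 and 475 CPM in the positives, a change of 3.84 ± 0.17 (SE, edgeR adjusted p = 3.9e-05). Gata2 (3.86), which mast cells also use, Hhex (3.002), Fli1 (2.98) and the flow-induced factors Klf2 (3.44) and Klf4 (2.46) were called higher. The 3 members not called were Foxc1 (0.27), Foxc2 (0.495) and the venous factor Nr2f2 (-0.42). Stromal or mural cells also use these genes, and whether this bears on their values was not tested. Nr2f2 was called without positive 953 (log2 -0.77, adjusted p = 0.0236).

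Most arterial and venous genes were higher in the pull-down, and the lymphatic list was divided, with 3 of 6 measured genes higher and 2 lower. Bmx (4.02), the gap junction genes Gja5 (3.78) and Gja4 (2.64), the semaphorin Sema3g (3.62) and the ephrin Efnb2 (2.06) were among the 10 of 12 arterial genes called higher, and Fbln5 (-0.84), an elastic fibre protein, was the one called lower. Of the 12 arterial genes 3 were listed through the positive libraries only. In the venous list Lrg1 (3.77), Vwf (3.704), Ephb4 (2.51) and Icam1 (1.56) were higher. Vcam1 was higher at 1.13 and lost its call without 1 library, namely input 953 or positive 953 (log2 0.89 to 1.05, adjusted p = 0.0534 to 0.0559). The lymphatic chemokine Ccl21a measured 5.62, 18.2 and 4.93 CPM in the inputs and 53.3, 364 and 55.9 CPM in the positives, a change of 4.07 ± 0.88 (SE, edgeR adjusted p = 0.00682). Lyve1 (2.902), a hyaluronan receptor of lymphatic endothelium and of tissue macrophages, was higher too, while Pdpn (-1.897) and Reln (-1.65) were lower. Pdpn and Reln are used by other cells of the lysate as well, and what those cells contribute was not tested. Prox1, the lymphatic master gene, is not in the table.

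Genes of blood flow and clotting were higher in 12 of 16 cases (median 2.21). Vwf, which tethers platelets, measured 76.2, 39.6 and 58.5 CPM in the inputs and 729, 796 and 749 CPM in the positives, a change of 3.704 ± 0.27 (SE, edgeR adjusted p = 7.0e-05). Nos3, the endothelial nitric oxide synthase, measured 25.04, 15.7 and 18.1 CPM in the inputs and 202, 184 and 191 CPM in the positives, a change of 3.29 ± 0.21 (SE, edgeR adjusted p = 5.3e-05). Edn1 (2.83), which encodes endothelin, its converting enzyme Ece1 (2.17), the cyclooxygenase Ptgs1 (2.51), the ATP-degrading Entpd1 (2.37) and the anticoagulants Procr (1.79), Tfpi (1.49) and Thbd (1.25) were higher. F3, tissue factor, which starts clotting and is kept outside the vessel lumen, measured 103, 171 and 148 CPM in the inputs and 24.1, 30.3 and 27.6 CPM in the positives, a change of -2.37 ± 0.23 (SE, edgeR adjusted p = 1.8e-04). Ptgis, prostacyclin synthase, was lower (-1.14). Plat was at -0.29 and not called.

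Among G protein-coupled receptors of endothelium, Calcrl (2.56) and its partners Ramp2 (2.15) and Ramp3 (4.31) were higher. The third partner, Ramp1, was at 0.71 and was called with the replicate block (0.701, adjusted p = 0.0369), and it also was called without positive 421 (log2 0.94, adjusted p = 0.0392). The sphingosine phosphate receptor S1pr1 (3.11 ± 0.31), the thrombin receptor F2r (2.33) and the adhesion receptors Eltd1 (3.35) and Gpr116 (3.39) were higher, and so was the adenosine receptor Adora2a (2.49), listed through the positive libraries only. Of 19 guidance genes 12 were called higher. Beside Robo4 these included the ligands Sema3g, Sema7a (3.11), Sema3f (1.66) and Efna1 (3.596) and the receptors Plxnd1 (2.35), Ephb4 and Epha2 (2.09). Sema3c, a ligand of the same family as Sema3g, measured 284, 504 and 454 CPM in the inputs and 105, 78.7 and 129 CPM in the positives, a change of -1.99 ± 0.27 (SE, edgeR adjusted p = 7.9e-04). Slit2, the ligand of the roundabout receptors, was lower at -1.83 and lost its call without 1 library, namely input 421, input 953 or positive 960 (log2 -1.76 to -1.48, adjusted p = 0.05405 to 0.0565).

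The barrier genes of blood-retina and blood-brain vessels divided. Of 15 transport genes 3 were higher and 7 lower (median -0.47), against 21.1% higher and 20.9% lower of all genes. The efflux pump Abcg2 measured 19.3, 11.1 and 11.8 CPM in the inputs and 125, 136 and 77.1 CPM in the positives, a change of 3.004 ± 0.305 (SE, edgeR adjusted p = 2.2e-04). Its relative Abcb1a, P-glycoprotein, was at 2.604 ± 0.33 and the anion carrier Slco2b1 at 1.51 ± 0.33. The organic anion transporter Slc22a8 measured 105, 148 and 150.3 CPM in the inputs and 23.4, 19.1 and 29.7 CPM in the positives, a change of -2.49 ± 0.23 (SE, edgeR adjusted p = 1.6e-04). The thyroid hormone carrier Slco1c1 measured 88.4, 141 and 139 CPM in the inputs and 35.2, 16.1 and 33.9 CPM in the positives, a change of -2.11 ± 0.32 (SE, edgeR adjusted p = 0.00128). For both, the positives lay below all inputs. The monocarboxylate carrier Slc16a1 (-1.92), the amino acid carrier Slc7a5 (-1.12), the transferrin receptor Tfrc (-1.04) and the lipid carrier Mfsd2a (-1.33) were lower. Slc2a1, the glucose carrier of barrier endothelium and of the RPE, was lower at -0.81 and lost its call without 1 library, namely input 421, input 953, input 960, positive 953 or positive 960 (log2 -0.85 to -0.58, adjusted p = 0.0659 to 0.107).

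Of 15 tight junction genes only Cldn5 and F11r (2.04 ± 0.23), which encodes a junctional adhesion molecule, were called higher. Cldn5 measured 77.6, 36.2 and 62.6 CPM in the inputs and 1283, 1097 and 1192 CPM in the positives, a change of 4.34 ± 0.31 (SE, edgeR adjusted p = 6.9e-05). The epithelial claudins Cldn1 (-2.23), Cldn2 (-2.399), Cldn12 (-1.75) and Cldn19 (-1.68) and the scaffold Cgn (-1.66) were lower. Cldn19, a claudin of the RPE, measured 27.4, 29.3 and 14.99 CPM in the inputs and 10.4, 4.01 and 7.63 CPM in the positives. The claudins of the list that were called thus split between 1 higher and 4 lower. The scaffold Tjp1 (0.03) and occludin, Ocln (-0.36), were not called. Of the list 6 genes were listed through the inputs only. With the replicate block 4 members were higher and 6 lower, adding Jam2 (0.62, adjusted p = 0.00339), Lsr (0.56, adjusted p = 0.0237) and Jam3 (-0.36, adjusted p = 0.0442). Jam2, at 0.61, also was called without input 421 (log2 1.02, adjusted p = 0.0327).

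In the Wnt group that induces barriers in brain and retina, the nuclear effectors Lef1 (2.69), Foxf2 (1.88), Foxq1 (1.87) and Sox17 and the co-receptor Tspan12 (2.16) were higher. Lrp5 was higher at 0.85 and lost its call without 1 library, namely input 953, input 960 or positive 421 (log2 0.603 to 0.76, adjusted p = 0.0559 to 0.0869), and with library totals alone (adjusted p = 0.0815). Foxl2 was higher at 2.94 and, like Lef1, Foxq1 and Sox17, was listed through the positive libraries only. The receptor Fzd4 was lower at -1.34 and lost its call without 1 library, namely input 953, positive 953 or positive 960 (log2 -1.2999 to -1.07, adjusted p = 0.0515 to 0.0736). The targets Axin2 (-0.88) and Tnfrsf19 (-1.16) were lower, and Notum and Apcdd1 were called lower with the replicate block (adjusted p = 0.0207 and adjusted p = 0.0225 in edgeR). Without input 960 Apcdd1 was called as well (-1.597, adjusted p = 0.0193). Of the 14 members 6 were listed through the inputs only and 4 through the positives only.

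Caveolae, the flask-shaped pits of the endothelial membrane, were represented by 8 genes, of which 7 were higher. Cav1, the main coat protein, measured 78.5, 71.7 and 54.8 CPM in the inputs and 300.2, 452 and 288 CPM in the positives, a change of 2.34 ± 0.24 (SE, edgeR adjusted p = 2.3e-04). Cav2 (2.35), the cavins Ptrf (1.93), Sdpr (1.72) and Prkcdbp (2.19) and the membrane ATPases Ehd2 (1.396) and Ehd4 (3.198) were also higher. Of 10 genes that carry fatty acids across endothelium 7 were higher. Of the 10 genes 2 were listed through the positive libraries only and 2 through the inputs only. Fabp4, a fatty acid binding protein, measured 32.2, 59.2 and 29.9 CPM in the inputs and 235, 906 and 412 CPM in the positives, a change of 3.68 ± 0.52 (SE, edgeR adjusted p = 9.1e-04). Its relative Fabp5 was at 3.56 ± 0.26, the fatty acid receptor Cd36 at 2.37 ± 0.26, the acyl-CoA synthetase Acsl5 at 2.22 ± 0.18 and their regulator Pparg at 1.58 ± 0.25. Lpl, the lipase that stromal cells supply to the capillary, was lower at -0.76 and lost its call without 1 library, namely input 421, input 953 or positive 960 (log2 -0.72 to -0.62, adjusted p = 0.0507 to 0.0631). Slc27a4 was lower at -0.48 and lost its call without 1 library, namely input 421, input 953, input 960, positive 421, positive 953 or positive 960 (log2 -0.51 to -0.45, adjusted p = 0.0685 to 0.116).

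The basement membrane genes, which build the thin sheets under endothelium and RPE on either face of Bruch's membrane, lay on both sides of 0. Of 19 genes 9 were higher and 8 lower (median -0.19). Type IV collagen chains assemble as fixed trimers. Col4a3 measured 110.1, 117 and 97.3 CPM in the inputs and 25.6, 19.8 and 31.4 CPM in the positives, a change of -2.09 ± 0.21 (SE, edgeR adjusted p = 2.1e-04). Col4a4 measured 99.02, 72.3 and 71.4 CPM in the inputs and 19.97, 12.3 and 16.5 CPM in the positives, a change of -2.31 ± 0.25 (SE, edgeR adjusted p = 2.7e-04). With Col4a5 (-1.58 ± 0.33) and Col4a6 (-1.597 ± 0.41) these chains were lower, all without overlap of the fractions. Col4a1 measured 155, 63.7 and 75.9 CPM in the inputs and 510.1, 198 and 266 CPM in the positives and was higher (1.73 ± 0.43 (SE, edgeR adjusted p = 0.0128)), but it lost its call without input 953 (log2 1.47, adjusted p = 0.0512). Its partner chain Col4a2, at 1.53, likewise lost its call without input 953 (log2 1.36, adjusted p = 0.0554). Of the laminin chains Lama4 (1.68 ± 0.26) and Lama5 (1.497 ± 0.27), the alpha chains of endothelial laminins, and Lamb2 (1.303) and Lamc1 (1.08) were higher, while Lamb1 (-1.25) was lower. Lama2, at -1.45, lost its call without 1 library, namely input 421, positive 953 or positive 960 (log2 -1.24 to -1.11, adjusted p = 0.0733 to 0.0859). Perlecan, Hspg2 (1.96 ± 0.26), Nid1 (1.19) and Col15a1 (1.68) were higher. Col18a1 (-1.22), whose product releases endostatin, was lower.

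Among elastic fibre and Bruch's membrane genes Eln, elastin, measured 49.3, 48.3 and 44.5 CPM in the inputs and 166, 161 and 127 CPM in the positives, a change of 1.68 ± 0.17 (SE, edgeR adjusted p = 2.1e-04). Fbln2 (1.99), Ltbp4 (1.76) and Emilin1 (1.46) were the other 3 of the list called higher. The fibrillin Fbn1 (-1.57), the fibulins Fbln1 (-1.62), Efemp1 (-1.34) and Efemp2 (-1.16) and the crosslinking enzyme Loxl1 (-1.898) were lower. Timp3, the protease inhibitor deposited in Bruch's membrane, measured 4936, 5518 and 4373 CPM in the inputs and 4737, 3695 and 3362 CPM in the positives, a change of -0.33 ± 0.23 that was not called. Among the cell-surface integrins, which bind these proteins, Itgb3 (1.94), Itga5 (1.74), Itgb1 (1.22) and Itgb5 (0.97) were higher, and Itga7 (-1.27) lower. Itgav, the alpha partner of Itgb3, Itgb5 and Itgb8, measured 441, 624 and 573 CPM in the inputs and 123, 96.9 and 124 CPM in the positives, a change of -2.25 ± 0.21 (SE, edgeR adjusted p = 1.6e-04). Itgb8, listed through the inputs only, measured 427, 309 and 164 CPM in the inputs and 57.4, 13.6 and 37.7 CPM in the positives. The partners of the alpha-v integrins thus differed in direction. Itga6 and Itgb4, the laminin receptor pair, were called higher with the replicate block (1.35, adjusted p = 0.002699 and 1.59, adjusted p = 8.0e-06). Itga6 also was called without positive 953 (log2 2.03, adjusted p = 0.0405), and Itgb4 was called without input 421 (log2 2.72, adjusted p = 0.0213).

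**Figure D3:**
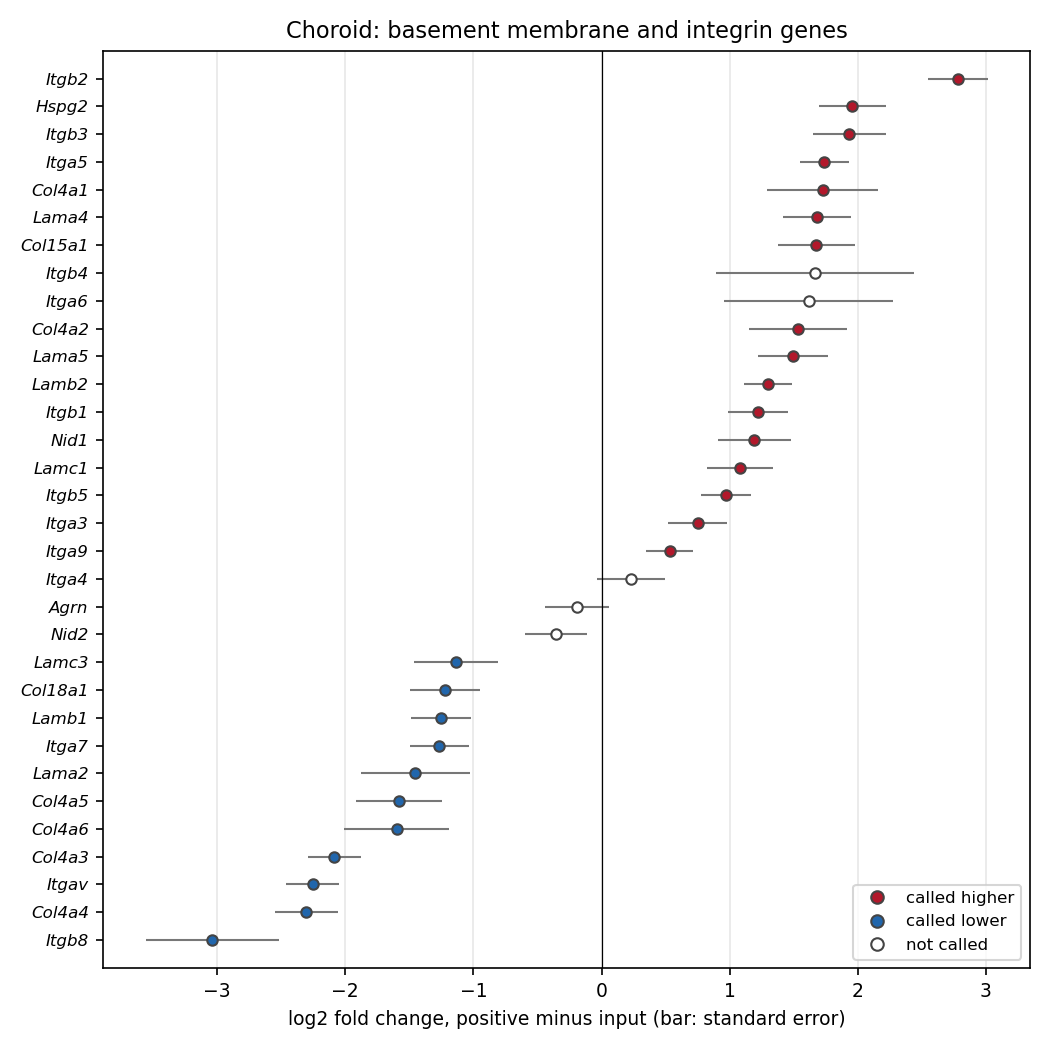
Log2 fold change (positive minus input, bars: standard error) of basement membrane and integrin genes in choroid. The collagen chains Col4a3 to Col4a6, Itgav and Itgb8 lie below 0, and Hspg2, Lama4, Lama5 and Itgb3 lie above it.

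Leukocyte genes were higher as a set, in all 12 measured general leukocyte genes (median 2.204), a value given beside the endothelial ones because the Tie2 promoter also marks the blood lineage. Of these 12 genes 1 was listed through the positive libraries only. The summed level of that list was 423, 250.2 and 482 CPM in the inputs and 1784, 1452 and 1820.5 CPM in the positives. Ptprc, the general leukocyte antigen CD45, measured 37.6, 22.03 and 38.5 CPM in the inputs and 107, 85.8 and 79.7 CPM in the positives, a change of 1.47 ± 0.25 (SE, edgeR adjusted p = 0.00222), and was at 0 in no library. Of 15 macrophage genes 14 were higher (median 2.63). Lyz2, lysozyme, measured 1567, 1070.1 and 1817 CPM in the inputs and 11669.7, 12088 and 17610.1 CPM in the positives, a change of 3.22 ± 0.31 (SE, edgeR adjusted p = 1.9e-04). Mrc1, the mannose receptor of tissue macrophages, measured 26.7, 25.1 and 22.8 CPM in the inputs and 124, 157 and 119 CPM in the positives, a change of 2.42 ± 0.18 (SE, edgeR adjusted p = 8.0e-05). Csf1r, the receptor for the macrophage growth factor, was at 0.39 ± 0.21 and was called with the replicate block (0.37, adjusted p = 0.0412). The microglial gene Cx3cr1 (2.13) was higher, and Tmem119 and Olfml3 were called with the block (0.803, adjusted p = 0.0132 and 0.69, adjusted p = 0.00152). Olfml3 also was called without positive 953 (log2 0.93, adjusted p = 0.0347). The antigen-presenting genes H2-Ab1 (2.67 ± 0.37), Cd74 (2.45 ± 0.34) and Itgax (2.85 ± 0.25) were among 6 of 6 measured class II and dendritic genes called higher, 13 having been listed. Of the T and NK cell list 2 of 12 names were in the table, Cd4 (2.84) and Il7r (1.58), both higher, and of the B cell list only Igj (1.49), also higher. The other names of those lists, and most neutrophil genes, are not in the table, which does not show that they were absent. Whether leukocytes contribute to the endothelial values above was not tested. The general endothelial list, of which Pecam1, Icam2, Fli1 and Eng, among others, are also used by blood cells, summed to 1656, 930.4 and 1124 CPM in the inputs and 16501, 13342 and 13001 CPM in the positives.

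Mast cell genes, the products of another cell of the blood lineage, were higher in 7 of 8 measured cases (median 3.17). Mcpt4, a connective tissue mast cell chymase, measured 8.85, 17.1 and 12.03 CPM in the inputs and 95.99, 382 and 158 CPM in the positives, a change of 4.07 ± 0.52 (SE, edgeR adjusted p = 6.0e-04). Cma1 measured 7.496, 16.8 and 12.2 CPM in the inputs and 69.7, 282 and 150.0 CPM in the positives, a change of 3.78 ± 0.52 (SE, edgeR adjusted p = 8.1e-04), and the tryptase Tpsb2 measured 15.8, 17.02 and 16.3 CPM in the inputs and 124, 335 and 164 CPM in the positives, a change of 3.66 ± 0.37 (SE, edgeR adjusted p = 2.1e-04). No positive of these 3 proteases overlapped an input. The histamine-forming enzyme Hdc (2.67), the carboxypeptidase Cpa3 (2.48) and Hpgds (1.75) were also higher. Kit, the stem cell factor receptor, which melanocytes carry as well, was at -0.41 ± 0.28 and not called.

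The complement genes lay on both sides of 0, with 6 of 19 higher and 6 lower, against 21.1% higher and 20.9% lower of all genes. C1qa measured 189, 109.6 and 230.5 CPM in the inputs and 1484, 1394 and 1978 CPM in the positives, a change of 3.198 ± 0.32 (SE, edgeR adjusted p = 2.0e-04), and C1qb (3.03), C1qc (2.84), the receptors C5ar1 (2.69) and C3ar1 (2.57) and properdin, Cfp (1.79), were higher, all genes of myeloid cells. The fluid-phase regulators Clu (-1.72) and Serping1 (-1.74) and the proteases C1s (-1.502) and C2 (-1.396) were lower. C3, the central component, was at -0.51 ± 0.53 and C4b at -0.58 ± 0.38, neither called. Of the surface regulators Cd55 and Cd59a were called higher with the replicate block (0.71, adjusted p = 0.0421 and 0.49, adjusted p = 0.0227), and Cd59a was called without positive 421 (log2 0.59, adjusted p = 0.0484). C1ra, at -0.71, lost its call without 1 library, namely input 421, input 960, positive 421 or positive 960 (log2 -0.701 to -0.58, adjusted p = 0.0654 to 0.0918).

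All 13 class I presentation genes were higher (median 2.21, range 1.49 to 3.16), 1 of them listed through the positive libraries only. H2-D1, a classical class I chain, measured 696, 450.2 and 710.0 CPM in the inputs and 3962, 4526 and 5234 CPM in the positives, a change of 2.89 ± 0.26 (SE, edgeR adjusted p = 1.6e-04). B2m, its constant light chain, measured 663, 556 and 808 CPM in the inputs and 2311, 2234 and 2833 CPM in the positives, a change of 1.86 ± 0.22 (SE, edgeR adjusted p = 4.4e-04). The peptide pumps Tap1 (1.78) and Tap2 (1.94) and the immunoproteasome subunits Psmb8 (2.21), Psmb9 (3.16) and Psmb10 (2.31) were higher. The H2 genes are near-identical copies of each other, so reads may be split among them and single members, above all H2-Q6 and H2-Q7, are uncertain. Of the whole proteasome list 26 of 37 genes were higher (median 0.702), a count that ran from 8 to 25 when single libraries were left out. Of its constitutive members Psmd10 was higher at 0.95, and Psmb7 was at 0.24 and not called. Of 18 interferon-response genes 7 were higher and 1 lower, with 9 and 4 with the replicate block. Ifitm2 (1.88), Bst2 (1.597) and Irf1 (1.504) were higher and Ifit3 (-0.67) lower. Class I genes are used by endothelial and by blood cells, whose general markers were also higher, and the share of each in these values was not tested.

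Immediate early genes, which respond within minutes to stimuli and to tissue handling, were higher in 12 of 14 cases (median 1.61). Ier2 measured 24.5, 19.2 and 31.04 CPM in the inputs and 157, 190.5 and 183 CPM in the positives, a change of 2.82 ± 0.21 (SE, edgeR adjusted p = 8.3e-05). Nr4a1 (2.66), Atf3 (2.36), Jun (2.17), Junb (1.78), Dusp1 (1.64) and Fos (1.59) were higher. Egr1 and Ier3 were called with the replicate block (0.71, adjusted p = 0.0336 and 0.699, adjusted p = 0.0331). Egr1 also was called without positive 960 (log2 1.07, adjusted p = 0.0205), and Ier3 was called without input 960 (log2 1.02, adjusted p = 0.0371). Fosl2, at 1.31, lost its call without 1 library, namely input 953, input 960 or positive 421 (log2 0.73 to 1.36, adjusted p = 0.0597 to 0.105), and with library totals alone and with limma (adjusted p = 0.0688 and adjusted p = 0.0690). The heat shock and unfolded protein genes did not move as a set: the chaperones Hspa5 (0.24), Hsph1 (0.05) and Dnajb1 (-0.003) were not called, and 3 of 11 members were called higher, 1 to 3 without single libraries. Of all genes 21.1% were called higher.

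**Figure D4:**
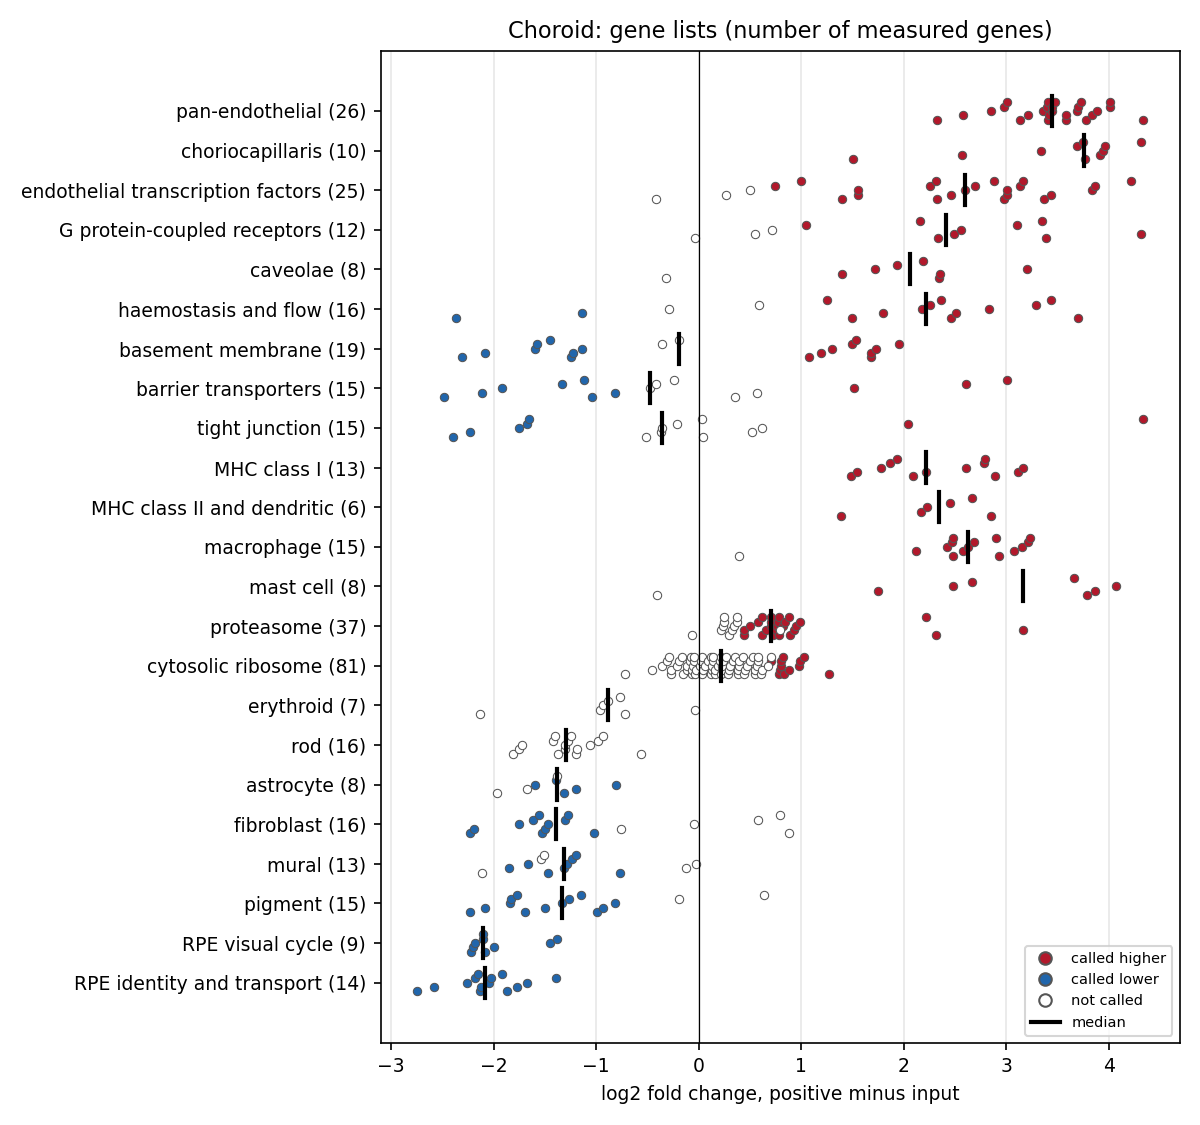
Log2 fold change (positive minus input) of the measured genes of selected gene lists in choroid, with points for genes and a bar for the median of the list. The medians of the pan-endothelial, macrophage and mast cell lists lie above 0, and those of the RPE visual cycle, RPE identity, pigment, mural and fibroblast lists below it.

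Genes of the visual cycle and of RPE identity were lower. All 9 measured visual cycle genes were lower (median -2.103). Lrat, the enzyme that stores retinol as esters, measured 1119, 1747 and 1778 CPM in the inputs and 257, 267 and 473 CPM in the positives, a change of -2.22 ± 0.31 (SE, edgeR adjusted p = 8.7e-04). Rlbp1 (-2.09), a retinaldehyde carrier, Rgr (-2.103), the retinol dehydrogenases Rdh5 (-1.99) and Rdh10 (-2.18) and the vitamin A receptor Stra6 (-2.11) were lower. Ttr, at -1.45, lost its call without positive 953 (log2 -1.34, adjusted p = 0.0683). All 14 genes of RPE identity and transport were lower as well (median -2.09). Otx2, a transcription factor of the RPE, measured 277, 488 and 411 CPM in the inputs and 62.4, 79.3 and 119 CPM in the positives, a change of -2.18 ± 0.298 (SE, edgeR adjusted p = 7.8e-04). Mitf (-1.39), the regulator it works with, Sox9 (-1.92), the potassium channel Kcnj13 (-2.13), the lactate carrier Slc16a8 (-2.05), Cdh3 (-2.14) and the keratins Krt8 (-1.87) and Krt18 (-1.77) were lower. The medians of both lists correspond to positive levels that were below the input and well above 0, as for Rpe65.

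The list of phagocytosis and lysosome genes of the RPE went the other way, with 7 of 11 higher. Mfge8, a bridge between dying membranes and integrins, measured 224, 175 and 227 CPM in the inputs and 1391, 1534 and 1623 CPM in the positives, a change of 2.86 ± 0.203 (SE, edgeR adjusted p = 6.9e-05). Ctsd, a lysosomal protease, measured 3339, 3552 and 4048 CPM in the inputs and 10330.4, 8703 and 12840.0 CPM in the positives, a change of 1.54 ± 0.24 (SE, edgeR adjusted p = 0.00155). Gpnmb (1.72), Lamp1 (1.37) and the bridging ligand Gas6 (0.88) were higher. These genes are also used by macrophages and endothelium, whose lists were higher. Mertk, the receptor of the RPE for Gas6, was at -0.63 ± 0.29, called lower with the replicate block (-0.69, adjusted p = 0.0216), and it was called without positive 421 (log2 -1.05, adjusted p = 0.00905). Myo7a (-1.12), a motor of melanosomes and phagosomes, was lower. Lipa, at 0.69, lost its call without input 953 (log2 0.64, adjusted p = 0.0698), and with library totals alone (adjusted p = 0.0698). Of 10 secreted products of the RPE 6 were lower, among them Enpp2 (-2.01), which makes lysophosphatidic acid, Serpinf1 (-1.47), which encodes the antiangiogenic factor PEDF, and Sfrp5 (-1.68). Wfdc1 (0.98 ± 0.23) was the one called higher, and Cst3, cystatin C, was at -0.27 ± 0.26 and not called.

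Pigment genes, shared by the RPE and choroidal melanocytes, were lower in 13 of 15 cases (median -1.34). Tyr, tyrosinase, which makes melanin, measured 249, 241 and 192 CPM in the inputs and 52.2, 46.3 and 62.7 CPM in the positives, a change of -2.08 ± 0.19 (SE, edgeR adjusted p = 1.6e-04). Tyrp1 measured 1359, 788 and 748 CPM in the inputs and 422, 154 and 231 CPM in the positives, a change of -1.84 ± 0.395 (SE, edgeR adjusted p = 0.00664). Oca2 (-2.24), Gpr143 (-1.77), Slc24a5 (-1.6998), Slc45a2 (-1.505), Pmel (-1.27) and Dct (-0.99), genes of the melanosome, were lower. Myo5a (-0.19) was not called, and Hps1 was called higher with the replicate block (0.64, adjusted p = 0.0488). Hps4, at -0.81, lost its call without 1 library, namely input 953, input 960 or positive 953 (log2 -0.82 to -0.68, adjusted p = 0.05401 to 0.067998). Of 4 measured genes that melanocytes have and the RPE does not, 2 were lower and 2, Kit among them, were not called. The highest of the 4 values was 0.545, and with the replicate block 1 gene was called higher. Sox10 (-2.002 ± 0.29) was lower, although Schwann cells carry it too. Pax3, at -1.18, lost its call without 1 library, namely input 421, input 953, input 960, positive 421 or positive 953 (log2 -1.34 to -0.798, adjusted p = 0.0638 to 0.0991).

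The 250 bases before the start of Rpe65, Tyr and Tyrp1 are shown because all 3 genes were lower without overlap. Otx2 and Mitf, transcription factors of the RPE and of pigment cells, were lower too. They belong to the list of RPE identity and transport, which holds none of the 3 genes shown. Capitals mark TAATCC, the motif of Otx2, and CATGTG, the motif of Mitf, or their reverse complements, on GRCm38.p6: Rpe65 at chr3:159598931-159599180, plus strand, Tyr at chr7:87493513-87493762, minus strand and Tyrp1 at chr4:80833963-80834212, plus strand.
Rpe65: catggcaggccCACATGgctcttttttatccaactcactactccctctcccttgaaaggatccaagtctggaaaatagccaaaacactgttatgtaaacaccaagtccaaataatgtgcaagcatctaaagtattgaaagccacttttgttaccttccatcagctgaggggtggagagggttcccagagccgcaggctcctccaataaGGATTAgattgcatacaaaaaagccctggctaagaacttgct
Tyr: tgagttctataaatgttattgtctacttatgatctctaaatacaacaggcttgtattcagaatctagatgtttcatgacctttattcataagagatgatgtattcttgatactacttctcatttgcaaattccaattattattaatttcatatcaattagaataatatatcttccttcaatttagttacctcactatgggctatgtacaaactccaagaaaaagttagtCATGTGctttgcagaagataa
Tyrp1: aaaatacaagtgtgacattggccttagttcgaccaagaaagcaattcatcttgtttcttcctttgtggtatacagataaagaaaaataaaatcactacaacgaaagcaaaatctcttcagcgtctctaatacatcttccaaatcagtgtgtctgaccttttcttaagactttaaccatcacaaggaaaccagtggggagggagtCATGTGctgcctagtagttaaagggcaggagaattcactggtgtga
Rpe65 holds 1 match of each motif, and Tyr and Tyrp1 hold 1 match of CATGTG each. All 3 genes shown carry a match, whereas the windows of Lrat, Rdh5 and Hps4, members of the same lists, held neither motif. Among the pigment genes 10 of 15 matched the promoter table, and 6 of their 12 windows (50.0%) held CATGTG on 1 of the strands, against 12.3% of all windows and 7.34% of those of genes tested. Among the genes of the visual cycle and of RPE identity 17 of 23 matched, and 5 of their 27 windows (18.5%) held TAATCC, against 6.25% and 5.17%. In the other lists CATGTG was in 18.5% of RPE and 5.56% of endothelial windows, and TAATCC in 8.33% of pigment and 5.56% of endothelial windows. These are descriptions of sequence and show no binding.

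Cells of the vessel wall outside the Tie2 lineage were lower or not called. Of 13 mural genes 8 were lower, 11 with the replicate block, and none higher (0), with a median of -1.32. Of these 13 genes 10 were listed through the inputs only. Pdgfrb, the pericyte receptor for PDGF-B, measured 87.3, 54.1 and 57.7 CPM in the inputs and 25.2, 11.4 and 26.3 CPM in the positives, a change of -1.66 ± 0.34 (SE, edgeR adjusted p = 0.00511). Cspg4 (-1.32), Tagln (-1.2002) and Lmod1 (-1.47) were lower. Rgs5, a pericyte gene, was called with the block (-2.36, adjusted p = 1.7e-04) and it was called without positive 421 (log2 -3.57, adjusted p = 0.0179). Of 16 fibroblast genes 11 were lower (median -1.39), and 6 of the list were listed through the inputs only. Dcn, decorin, measured 1114, 859 and 889.5 CPM in the inputs and 280.5, 462 and 270.4 CPM in the positives, a change of -1.499 ± 0.26 (SE, edgeR adjusted p = 0.00229). Col1a1 (-1.47), Col1a2 (-1.56), Lum (-1.53) and Ogn (-2.197) were lower. Col5a2 and Pi16 were called higher with the block (0.56, adjusted p = 0.0215 and 0.66, adjusted p = 0.0226), against the direction of the rest. Col3a1 was called lower with the block (-0.84, adjusted p = 0.00776) and was called without positive 953 (log2 -1.17, adjusted p = 0.0341).

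Genes of retinal and other neighbouring cells varied widely between lysates. The summed level of 16 rod photoreceptor genes was 548, 2664 and 5995 CPM in the inputs and 200.4, 882 and 2641 CPM in the positives. Input 960 was the highest and input 421 the lowest, and the positives followed that order. No rod gene was called without the block (0 of 16), and all 16 were called lower with it (median -1.29), of which 12 were listed through the inputs only. The 5 oligodendrocyte genes summed to 5871, 774 and 823 CPM in the inputs and 1689, 169 and 289 CPM in the positives, highest in lysate 421. Of these 5 genes 1 was called lower, and 4 with the block, and leaving out positive 421 gave 4. Mbp, myelin basic protein, measured 2998, 97.2 and 156 CPM in the inputs and 859, 27.8 and 61.5 CPM in the positives, with -1.66, adjusted p = 7.5e-06 under the block, and it was called without positive 421 (log2 -4.62, adjusted p = 0.0471). Of 8 astrocyte genes 5 were lower and 8 with the block. Haemoglobin and other red cell genes were not called (0 of 7), and 5 were lower with the block. Hbb-b1 measured 107, 334 and 885 CPM in the inputs and 39.3, 194 and 488 CPM in the positives, with -1.01, adjusted p = 2.8e-04 under the block.

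**Figure D5:**
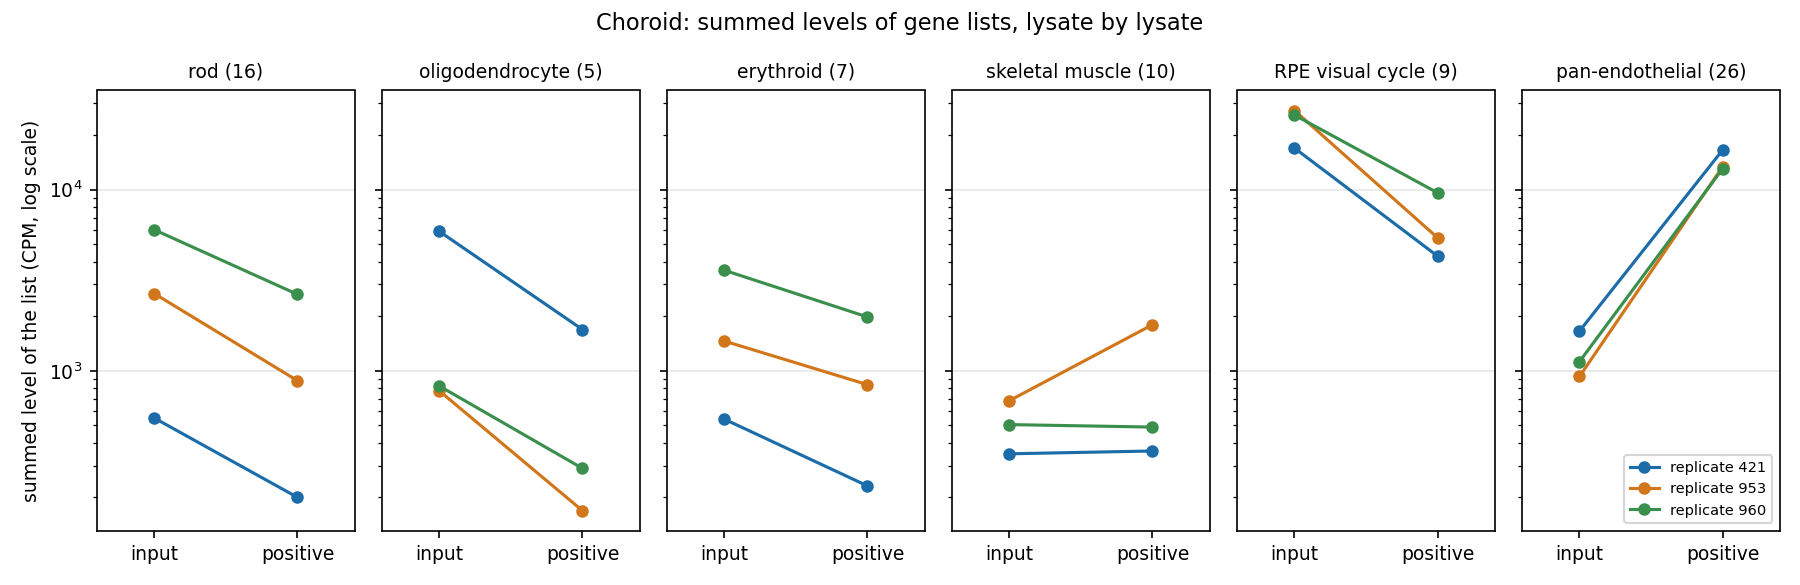
Summed level of 6 gene lists in each choroid library, in CPM on a log axis, with the input and positive of each lysate (421, 953, 960) joined. The rod sum runs from 548 to 5995 CPM over the inputs and from 200 to 2641 CPM over the positives and falls in every lysate.

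Some members of such lists went against their list. Gngt2, a cone transducin subunit by its list, measured 15.4, 15.8 and 29.7 CPM in the inputs and 109, 156 and 195 CPM in the positives, a change of 2.91 ± 0.33 (SE, edgeR adjusted p = 3.3e-04), while Gnat2 (-2.58), the cone transducin alpha subunit, was lower. Gngt2 is also used by myeloid cells. Stmn2, a microtubule regulator of neurons, measured 11.3, 11.9 and 11.8 CPM in the inputs and 90.3, 85.8 and 111 CPM in the positives, a change of 3.03 ± 0.19 (SE, edgeR adjusted p = 4.7e-05), while Syt1 (-1.92), Nefl (-1.43) and Trpm1 (-2.02) were lower. Apoe, in the Müller glia list and also a macrophage product, measured 7552, 7825 and 7335 CPM in the inputs and 26106, 28778 and 39118 CPM in the positives, a change of 2.05 ± 0.27 (SE, edgeR adjusted p = 6.1e-04), while Dkk3 (-1.43) and Crym (-1.795) were lower. Aqp1, a water channel in the ciliary body list and in endothelium, was at 2.81 ± 0.35, while Zic1 (-2.32) and Wls (-1.23) were lower. Each of these 4 exceptions was higher in 3 of 3 lysates.

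Skeletal muscle genes, which can come from eye muscle at the outer wall, stood out in 1 library. The 10 genes summed to 348, 685 and 505 CPM in the inputs and 361, 1796 and 489 CPM in the positives, and positive 953 was the highest. None was called without the block (0 of 10), 5 were called higher with it, and 3 when positive 421 was left out. The gene with the highest log2 fold change of all 11718, Myh3, which encodes an embryonic myosin heavy chain of muscle and is outside the list, was singled out after its values were seen. It measured 8.995, 17.1 and 10.4 CPM in the inputs and 17.5, 1178 and 8.05 CPM in the positives, a change of 5.05 ± 1.63 (SE, edgeR adjusted p = 0.0361), and positive 953 alone was high while the other libraries of the 2 fractions overlapped. Without positive 953 its value was 0.11, adjusted p = 0.8597, and without 1 of the inputs, 421, 953 or 960, its call was lost as well (adjusted p = 0.0819 to 0.0917). With the block it was not called (2.54, adjusted p = 0.0534).

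Of the housekeeping classes, the cytosolic ribosomal and respiratory chain lists had medians of 0.21 and 0.12, near that of all genes (-0.03). The glycolytic and histone lists had lower medians, of -0.504 and -0.868. Of 81 cytosolic ribosomal protein genes 12 were called higher and none (0) lower (median 0.21), against 21.1% and 20.9% of all genes. The count was 31 with the block and ran from 1 to 20 without single libraries, so it rests on which libraries are used. Rpl10a was at the top of the list (1.27), and Rpl4, for example, was at 0.296 and not called. Many ribosomal protein genes have processed copies, so their reads can be shared. Of 79 nuclear genes of the respiratory chain 3 were higher and 6 lower, with 20 and 8 under the block and 1 to 18 higher without single libraries. Of 17 glycolytic genes 7 were lower, 11 with the block and 4 to 7 without single libraries. They included the neuronal enolase Eno2 (-1.72 ± 0.26), Aldoc (-1.196) and Ldhb (-1.204), while Gapdh (-0.23) and Pkm (-0.04) were not called. Histone genes, whose replication-dependent transcripts lack a poly(A) tail, were lower in 7 of 11 cases, and 2 to 8 without single libraries, and 7 of the 11 were listed through the inputs only.

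Transcripts that are not known to be translated were measured in both fractions. Of 186 genes typed in the table as miscellaneous RNA, 64 were lower and 9 higher (median -0.65), and of 11489 protein-coding genes 2373 were lower and 2459 higher (median -0.02). Of 13 named long noncoding RNAs 8 were lower, and 7 of the list were listed through the inputs only. H19, an imprinted RNA, measured 32.2, 48.2 and 33.5 CPM in the inputs and 12.9, 11.7 and 9.32 CPM in the positives, a change of -1.73 ± 0.25 (SE, edgeR adjusted p = 0.00109). Neat1, the scaffold of nuclear paraspeckles, measured 1039, 695 and 734 CPM in the inputs and 474, 348 and 459.9 CPM in the positives, a change of -0.95 ± 0.23 (SE, edgeR adjusted p = 0.0109). Kcnq1ot1 (-1.21), Rian (-1.22) and Tug1 (-0.99) were lower, and Meg3 was lower with the block (-1.15, adjusted p = 3.2e-04). Malat1, a nuclear RNA, measured 1119, 1393 and 3380.3 CPM in the inputs and 942, 2188 and 4169 CPM in the positives and was not called (0.31 ± 0.56). The kit marks strand, and no source used here says whether the counting used it, so reads of Kcnq1ot1 and of the gene it runs opposite to may not be separated. Among the genes of highest level without a call were also Eef1a1 (-0.07) and Eef2 (0.09), the translation elongation factors, App (-0.52) and Hspa8 (0.47). With the block App (-0.55, adjusted p = 0.0216) and Hspa8 (0.46, adjusted p = 0.0227) were called, and App was called without positive 421 (log2 -0.83, adjusted p = 0.0376).

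The same pull-down was made from retina and brain of mice of the same genotype, and those libraries carry the same numbers as the choroid ones. Whether a number stands for the same mouse in each tissue was not settled here. The choroid log2 fold changes were set against those of retina and brain in 1 fit over the 10505 genes listed in all 3 tables. That fit used neither the shared numbers nor the pairs of a lysate. Against retina, 1141 genes (10.9%) were called higher in choroid and 1887 (18%) lower. Against brain, 1286 genes (12.2%) were called higher and 1296 (12.3%) lower. With library totals alone these were 580 and 2683 against retina and 547 and 2196 against brain. Against brain the number higher was 812 without choroid input 421, 622 without choroid positive 953, 709 without choroid input 960 and 754 without choroid positive 960, with 1435 to 1630 lower. Plvap, the diaphragm gene of fenestrated vessels, differed from retina by 3.47 ± 0.35 (SE, edgeR adjusted p = 3.8e-06), from 3.75 in choroid against 0.27 in retina. Kdr differed from retina by 3.52 ± 0.43 (SE, edgeR adjusted p = 2.7e-05), from 3.67 in choroid against 0.15 in retina. Both were called higher than input in choroid and lay near 0 in retina. Each value is relative to the input of its own tissue, so a difference can come from the inputs as well as from the pull-downs.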

How the data were processed

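RNA of 6 choroid libraries was analysed, with groups and lysate numbers read from the sample titles. The authors deposited 1 table per tissue, with expected counts per gene (71.986% of choroid values are not whole within 0.001), rounded here, and normalized log2 values made by the authors, used in 1 alternative only. Per the file headers a listed gene reaches a raw value of 50 in all libraries of at least 1 fraction. The submitters' processing notes name DESeq and mm10, and the aligner and counter are not named in any source used here.

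Fractions were compared by the quasi-likelihood test of edgeR 4.0.16 (R 4.3.3) after TMM scaling, with Benjamini-Hochberg adjustment over 11718 genes. The filter filterByExpr left all genes in, and 4 residual degrees of freedom remained. The SE is the log2 fold change over the root of F, and the method was tested on simulated data. Log2 ratios within a lysate used log CPM with a prior count of 0.5. Differences between tissues were fitted over 18 libraries and 10505 genes. limma 3.58.1 and DESeq2 1.42.0 served as alternatives. The 3 pairs come from 1 lysate each, so the numbers pair the libraries. Deviations from the group means correlated at 0.616, 0.259 and 0.502 within the pairs. P values measure the spread between these 3 samples a group. Replicate log2 CPM correlated, across genes, at 0.927 to 0.965 between inputs and 0.916 to 0.931 between positives. The positive libraries, with 2649095 to 4587921 counts, limit the precision of low genes.

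The 71 gene lists held 803 genes of the table (146 names are not in it, and 15 were matched by another symbol). The members and lists were chosen with earlier results of these data known, so a list's count is a description. Genes were named from the 20 highest and 20 lowest called genes with at least 10 CPM and no overlap, members of lists of at most 20 genes, in longer lists the 8 called genes of smallest adjusted p and the 4 uncalled of highest level, the 4 markers, the 10 uncalled genes of highest level and, for each tissue difference, the 10 highest and 10 lowest genes also called in choroid. Myct1, Myh3 and Erg are named outside this rule, Myh3 for the highest value of all genes, Myct1 because it is 1 of 2 genes of its list listed through the positives only and Erg as background. Promoters were read from RefSeq windows on GRCm38.p6. Alternatives covered scaling, filters, rounding, tool, replicate block, all libraries in 1 fit, and libraries left out in turn. Some genes that this rule would name are not reported here.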

Additional observations from a re-analysis of the deposited data

Results flagged for a closer look

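The pull-down separated genes differently in choroid than in retina or brain. The difference between the log2 fold change in choroid and that in another tissue was tested in 1 fit over all 18 libraries and 10505 genes (edgeR, Benjamini-Hochberg adjustment). Choroid values here come from that fit, so they differ slightly from those above. Against retina 1141 genes (10.9%) were called higher in choroid and 1887 (18%) lower, and against brain 1286 (12.2%) were higher and 1296 (12.3%) lower. With library totals alone the counts against brain were 547 and 2196, and without choroid positive 953 they were 622 and 1435. Both comparisons use the same choroid libraries. Each log2 fold change is relative to the input of its own tissue, and what the inputs contribute to the differences below was not tested.

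Ramp3 led both. Its difference from retina was 4.56 ± 0.32 (SE, edgeR adjusted p = 2.2e-07), from 4.29 in choroid against -0.27 in retina, and its difference from brain was 4.37 ± 0.32 (SE, edgeR adjusted p = 1.8e-07), from 4.29 in choroid against -0.07 in brain. Rnd1, a small GTPase, differed from retina by 3.898 ± 0.37 and from brain by 4.04 ± 0.36. Fabp5, a fatty acid binding protein, differed from retina by 3.73 ± 0.31 and from brain by 4.09 ± 0.31. Against retina the other genes of the highest 5 were Gngt2 (4.04 ± 0.54) and AI836003 (3.93 ± 0.31). Against brain they were Mmp24 (4.22 ± 0.49), a membrane-bound matrix protease, and Lars2 (4.34 ± 0.95). The log2 ratio of Lars2 within choroid lysates was 3.82, 0.32 and 0.89, so lysate 421 stood apart from the other two.

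At the other end Slco1c1, the thyroid hormone carrier, had a difference from brain of -6.63 ± 0.62 (SE, edgeR adjusted p = 1.5e-06), from -2.13 in choroid against 4.4995 in brain, and its difference from retina was -6.39 ± 0.62. Pltp, the phospholipid transfer protein, differed from retina by -6.81 ± 0.51 and from brain by -5.91 ± 0.49. Against retina the other 3 of the lowest 5 were Sema3c (-6.59 ± 0.49), the lipocalin Apod (-6.39 ± 0.55) and Mfsd2a (-6.33 ± 0.53), the carrier of lysophospholipids. Against brain they were Mfsd7c (-6.44 ± 0.43), Stra6 (-6.42 ± 0.57), which takes up vitamin A, and Slc22a8 (-6.31 ± 0.47). The log2 fold change of Stra6 was -2.12 in choroid, 3.51 in retina and 4.304 in brain. Without replicate 421 in any tissue the difference of Lars2 from brain was 2.88 and lost its call (edgeR adjusted p = 0.0581), with adjusted p from 2.5e-04 to 0.0208 under the other alternatives run for it. The other differences named here kept their call under every alternative run for them.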

How the results depend on the processing

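No gene named in the choroid comparison reversed its call direction under an alternative (0 of 379), 271 kept their calls under all alternatives run, 77 lost a call in at least 1 and 31 gained one. Counts of called genes stayed within 1.5 times the main count with DESeq2, other scalings, other filters, unrounded counts, limma and all 18 libraries, and with the replicate block, which used the pairing by lysate and gave 3223 higher and 3412 lower. Of genes called with the block, DESeq2 or the fit over all 18 libraries also called Cd59a, Egr1, Hps1, Hspa8, Itga6, Itgb4 and Olfml3, and other scalings Jam3. Beyond the calls given in the text, the block changed none of the named genes. Leaving out libraries gave 1066 to 2575 genes called higher, 906 to 2498 lower, 1017 to 1598 at least 2-fold higher and 890 to 1863 at least 2-fold lower, each lowest count without both libraries of lysate 953, which leaves 2 against 2. In the tissue differences, library totals alone gave 580 higher against retina, and 547 higher and 2196 lower against brain. There, leaving out libraries gave 144 to 1758 higher and 480 to 2160 lower against retina, and 199 to 981 higher and 399 to 1890 lower against brain. The block gave 1205 and 1996 against retina and 1265 and 1454 against brain. With windows of 100 bases the share with AGGAAG was 44.4% in endothelial genes against 13.8% in all, with CATGTG 33.3% in pigment genes against 4.59%, and with TAATCC 7.41% in RPE genes against 2.3%. The causes of these changes were not tested. The fits with libraries left out also hold fewer samples. The positives are the shallower libraries.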

Other observations

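Of 6 chemokine and cytokine genes in the table, 3 were called higher and 1 lower in the choroid pull-down. Ccl8, listed through the positive libraries only, was at 3.39 ± 0.71, the membrane-bound chemokines Cx3cl1 at 2.33 ± 0.27 and Cxcl16 at 2.25 ± 0.27, and Cxcl12 was called with the replicate block (0.37, adjusted p = 0.0347). Csf1, the macrophage growth factor, was at -0.18 ± 0.38 and not called, and the alarmin Il33 was lower (-1.72 ± 0.29). That list held 18 names.

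Genes of sprouting endothelium were higher in 7 of 9 cases. Of the 9 genes 1 was listed through the positive libraries only and 1 through the inputs only. Cxcr4, the chemokine receptor of tip cells, which leukocytes also carry, measured 33.4, 16.7 and 28.4 CPM in the inputs and 189, 141 and 180.1 CPM in the positives, a change of 2.696 ± 0.27 (SE, edgeR adjusted p = 2.1e-04). Plaur (3.29), the urokinase receptor, and Trp53i11 (1.35) were higher. Apln, apelin, was higher at 1.602 and lost its call without 1 library, namely input 953, input 960 or positive 421 (log2 1.18 to 1.396, adjusted p = 0.0548 to 0.0725). Adm, adrenomedullin, the ligand of the receptor that Calcrl and Ramp3 form, was at -0.75 ± 0.38 and not called. The ribosomal RNA gene Rn45s was at 2.14, -0.09 and 0.43 (log2 ratio) within lysates 421, 953 and 960 and not called, although DESeq2 called it.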
